A study of Mus musculus with 6 samples.

Results

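Arginine and nitric oxide metabolism was followed through 9 genes of the RNA-seq table: the cationic amino acid transporters Slc7a1 and Slc7a2, argininosuccinate synthase (Ass1) and argininosuccinate lyase (Asl), GTP cyclohydrolase (Gch1), inducible nitric oxide synthase (Nos2), the arginases Arg1 and Arg2, and ornithine decarboxylase (Odc1). The 9 genes were picked by symbol from the 20275 coding gene symbols of the table, not by a threshold on their values. Where a symbol had several transcripts, the one with the highest mean value was used. This concerned Slc7a2, which has 2 transcripts, and not the other members.

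The RNA came from primary wildtype (WT) MEFs, which are fibroblasts grown out of mouse embryos (C57BL/6x 129 strain, embryo day 13.5) and were used after 4 passages. The MEFs were untreated or had been given 20 ng/ml of TNFα, a cytokine that activates the transcription factor NF-κB, for 1.5, 6 or 24 hr, to find transcripts whose expression TNFα changes. Poly-A RNA of each condition was sequenced as 1 library, and chromatin of untreated MEFs gave 1 H3K4me3 ChIP-seq library and 1 input library. A primary MEF culture is a mixture of embryonic cells, and in such bulk samples fewer cells of a type and less RNA per cell cannot be told apart.

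There was no replicate of any condition, so each value below stands for 1 library, no test was made, and a difference is described by its size alone. The deposited table gives 2 columns per library, called R1 and R2, with no explanation of what they hold. Their mean is called the level here, in deposited RPKM (reads per kilobase of transcript, scaled to the reads of the library), and their disagreement shows only how well 1 library was measured. The deposited RPKM has a scale of its own, so levels can be compared with each other but not with RPKM from elsewhere.

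Arginine enters cells through the transporters Slc7a1 and Slc7a2 and is then drawn on by competing enzymes. Nitric oxide synthases turn it into nitric oxide and citrulline, and they need tetrahydrobiopterin, a cofactor whose synthesis begins with Gch1. Ass1 and Asl, which serve the urea cycle in liver, rebuild arginine from the citrulline in other cells. Arginases split arginine into urea and ornithine, and Odc1 commits ornithine to polyamines, small cations that growing cells require. Inflammatory cytokines are well known inducers of this group of genes in macrophages and in several stromal cells.

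The sequence around the starts of these genes is shown first, for the 3 members whose promoter held a match that bears on the later comparisons of levels or of chromatin. RefSeq promoters on GRCm38.p6, which run from 250 bases before to 50 bases after a start, were found for Ass1, Gch1, Odc1 and Slc7a1 (2 starts). The capitals mark the matched motif, and each stretch reads 5′ to 3′ on the strand of the gene.
Gch1, NF-κB consensus: gaggcgcggcGGGGCTCCCCagccggcgac
Ass1, E-box: cgcccgtcccCACGTGtcccaggttc
Slc7a1, TATA box: gagtggggctTATAAAggtagattca
The Gch1 match lies at chr14:47189414-47189423 of GRCm38.p6 on the minus strand, its first base 10 bases before the start, and it reads as a match on both strands. The Ass1 match lies at chr2:31470234-31470239 on the plus strand and begins 36 bases before the RefSeq start. The mm9 annotation used below starts Ass1 further upstream, so by that annotation this match lies inside the gene. The Slc7a1 match lies at chr5:148392838-148392843 on the minus strand, 28 bases before the second, downstream start of that gene.

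Of 32841 RefSeq promoters of this length, 8.46% held the NF-κB consensus, 7.15% the E-box CACGTG and 13.6% the TATA box TATAAA on either strand. The Gch1 promoter also held a TATA box on the opposite strand, 188 bases before its start. None of the 5 member promoters held the core of the interferon-stimulated response element (in 3.44% of all promoters), TTGCNNAA (the C/EBP core, in 10.8%) or TGATGNAA (the core of the amino acid response element, in 3.97%). The promoter of Odc1 and that of the upstream Slc7a1 start held none of the 6 motifs. A match is a description of the letters only, and these shares show that each motif is common.

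How the libraries differed as a whole bears on every ratio. The summed values of the table were 1.20, 0.542 and 0.969 times the untreated sum after 1.5, 6 and 24 hr. Among the 6050 coding genes with a mean level above 100, the log2 ratio to untreated had a median of 0.44, -0.74 and 0.10 at these times. Each log2 ratio is therefore given both as deposited and relative to this median, and 2 genes can be compared within a library on either scale. The TNFα target Nfkbia, which encodes an inhibitor of NF-κB, had levels of 319, 7211, 2655 and 5772, so it was higher in every treated library.

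Of the 9 genes, 5 had a mean level above 100: Ass1, Asl, Slc7a1, Slc7a2 and Odc1. Slc7a2, with a mean of 105, passed this filter through its 1.5 hr value. Gch1, Arg1, Arg2 and Nos2 had means of 24.6, 11.0, 6.89 and 0.684 and did not pass. At 1.5 hr, 3 of the 5 were at least 2-fold higher than untreated as deposited (Ass1, Slc7a2 and Odc1), where 29.8% of all 6050 genes were. At 6 hr, 0 of 5 were, against 1.83% of all genes, and at 24 hr 2 of 5 were (Ass1 and Slc7a2), against 16.8%.

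Relative to the coding median, Ass1 and Slc7a2 were at least 2-fold higher at each of the 3 times, where the share of all genes was 15.8%, 7.21% and 14.4%. None of the 5 was at least 2-fold lower on either scale at any time. The background for that was 7.97%, 31.5% and 12.8% as deposited and 17.4%, 3.26% and 15.2% relative to the median. With 5 genes, these counts describe the members and carry no weight beyond that. Over the 3 times together, 3 of 5 were higher at 1 or more times as deposited (31.1% of all genes) and 2 of 5 relative to the median (20.1%), and 0 of 5 were lower at any, where 38.4% of all genes were as deposited and 21% relative to the median. The median log2 ratio of all 9 members was 1.47, -0.24 and 1.28 as deposited, beside 0.44, -0.74 and 0.10 for the 6050 coding genes. These medians cover unlike sets, because Gch1, Arg1, Arg2 and Nos2 are among the 9 but lie below the filter that the 6050 genes pass. All 3 comparisons share the untreated library, so they are not independent of each other. As deposited, all 9 genes had their lowest treated level at 6 hr, in the library with the lowest sum, and relative to the median this held for 5 of the 9 (Gch1, Nos2, Arg1, Slc7a1 and Odc1). For Nos2 this rests on too few reads to give a direction.

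**Figure D1:**
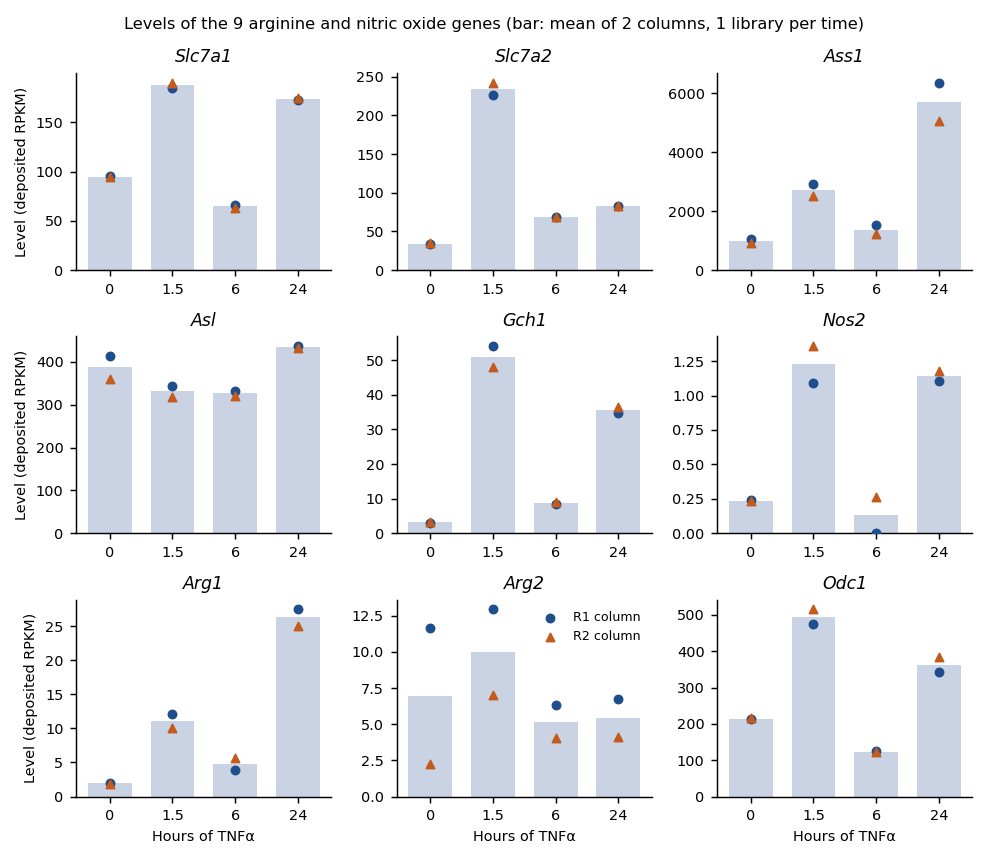
Level (deposited RPKM, linear axes from 0, a scale for each gene) of the 9 genes against hours of TNFα. Bars are the mean of the columns R1 (circles) and R2 (triangles) of 1 library per time. All 9 genes had their lowest treated level at 6 hr, Ass1, Asl and Arg1 were highest at 24 hr, and the 2 columns were far apart for Arg2.

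The transporters that bring arginine into the cell differed in their course. Slc7a1 (CAT-1), the widely expressed cationic amino acid transporter, had a level of 94.99 before treatment and of 188, 64.8 and 174 after it. Its log2 ratio to untreated was 0.98, -0.55 and 0.87, and relative to the median it was 0.54, 0.19 and 0.77, so it stayed within 2-fold on both scales, although R2 alone gave 1.01 as deposited at 1.5 hr. R1 and R2 differed little, at 185 and 190 at 1.5 hr and at 173 and 175 at 24 hr. Slc7a1 lies at chr5:149138986-149211480 of mm9 on the minus strand and has 13 exons.

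Slc7a2 (CAT-2) is the transporter whose expression is typically raised in activated macrophages. Its levels were 34.3 untreated and 234, 68.5 and 83.0 after 1.5, 6 and 24 hr, which is a 6.84-fold, 1.999-fold and 2.42-fold level of the untreated one. The log2 ratio was 2.77, 1.00 and 1.28 as deposited and 2.33, 1.74 and 1.17 relative to the median. The 6 hr value sits at the edge of the 2-fold threshold as deposited, with a log2 ratio of 1.03 in R1 and 0.97 in R2, and was not counted as 2-fold higher. The summed level of leukocyte markers, given with Nos2 below, was also highest at 1.5 hr, and its part in this result was not tested.

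Slc7a2 thus had its highest level at 1.5 hr and was 2.82-fold lower at 24 hr than at 1.5 hr, while Slc7a1 was 1.08-fold lower. Within a library, both transporters can be compared without any scaling between libraries. The level of Slc7a1 was 2.77 times that of Slc7a2 in untreated MEFs, and 0.801, 0.945 and 2.10 times it after 1.5, 6 and 24 hr. The order of the 2 transporters was therefore turned at 1.5 hr, and at 6 hr their levels were close. R1 and R2 gave the same order at every time, with ratios of 0.818 and 0.785 at 1.5 hr and 0.968 and 0.922 at 6 hr. Slc7a2 lies at chr8:41947750-42007662 of mm9 on the plus strand. Its second transcript, used in place of the first, gave log2 ratios of 2.77, 0.99 and 1.28.

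The arginine-rebuilding enzymes Ass1 and Asl act in sequence, and their levels parted under TNFα. Ass1, which joins citrulline to aspartate, was the most abundant of the 9 genes in every library, with levels of 984 untreated and 2716, 1369 and 5697 after 1.5, 6 and 24 hr. At 24 hr it ranked above 99.1% of all coding genes by level, and above 95.5% in untreated MEFs. Its log2 ratio was 1.47, 0.48 and 2.53 as deposited and 1.02, 1.22 and 2.43 relative to the median.

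In R1 and R2 the 24 hr level of Ass1 was 6354 and 5041, and the untreated level was 1045 and 922. Both columns placed the 24 hr level far above the others. At 1.5 hr the relative log2 ratio was 1.03 and 1.01 in the 2 columns, just past the 2-fold line. At 24 hr the deposited log2 ratio was larger than those of 99.3% of the 6050 genes. From 1.5 to 24 hr the level of Ass1 was 2.10-fold higher, a course opposite to that of Slc7a2.

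Asl, which splits argininosuccinate into arginine and fumarate, had a level of 387 untreated and of 331, 327 and 435 after 1.5, 6 and 24 hr. Its log2 ratio was -0.22, -0.24 and 0.17 as deposited. Relative to the median it was -0.67, 0.50 and 0.07, so its sign at 6 hr depended on the scaling. With 1.33-fold between its highest and lowest level, Asl varied least of the 9 as deposited, whereas relative to the median its values spanned more than those of Slc7a1, Arg2 and Odc1. The level of Ass1 was 2.54 times that of Asl in untreated MEFs, and 8.20, 4.19 and 13.1 times it after 1.5, 6 and 24 hr. Both columns gave a ratio above the untreated one at each treated time, the lowest being 3.78 in R2 at 6 hr.

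The Ass1 value is uncertain in its origin, because the genome holds a near copy of its mRNA. Ass1 lies at chr2:31325727-31376192 of mm9 on the plus strand, with 16 exons. Of the 1647 stretches of 50 bases in its transcript, 66.4% occurred elsewhere in mm9, all of them in 1 window of chromosome 10, and 58.3% inside the annotated pseudogene Gm5424 (chr10:61533871-61535109). Gm5424 is a single exon without introns, and the table gives it levels of 1043, 3723, 1603 and 7370, above those of Ass1 in each library.

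The log2 ratio of Gm5424 was 1.84, 0.62 and 2.82, and the row followed that of Ass1 at each time. Whether reads of 1 gene were counted in both rows was not tested. For the 2 rows summed, an alternative chosen after seeing the data, the log2 ratio was 1.67, 0.55 and 2.69. No H3K4me3 peak lay within 265641 bp of the start of Gm5424, whereas one covered the start of Ass1.

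**Figure D2:**
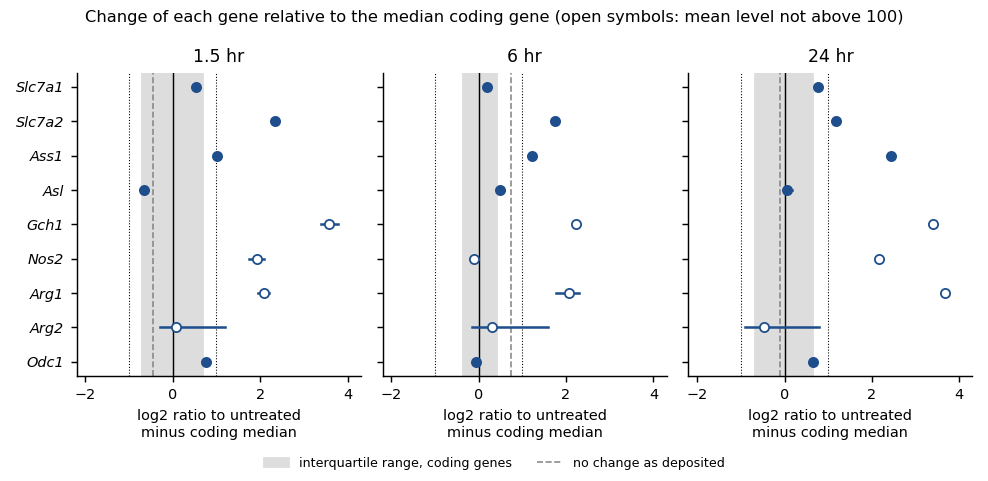
Log2 ratio to the untreated library minus the median of 6050 coding genes (x axis) for the 9 genes (y axis) at 1.5, 6 and 24 hr. Points are the mean of the columns, horizontal lines join R1 and R2 where both are above 0, open symbols are genes with a mean level of at most 100, the grey band is the interquartile range of the coding genes, dotted lines are 2-fold and the dashed line is no change as deposited. Ass1 and Slc7a2 lie right of the band at all 3 times, and Asl and Odc1 within or near it.

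Nitric oxide synthesis was represented by a cofactor enzyme with a large ratio and a synthase at the edge of detection. Gch1, the first and limiting step toward tetrahydrobiopterin, had a level of 3.13 untreated and of 51.0, 8.82 and 35.6 after 1.5, 6 and 24 hr. This was 16.3-fold, 2.81-fold and 11.4-fold the untreated level, the largest ratio of the 9 genes at 1.5 hr and the second largest at 24 hr. The columns were 54.1 and 47.9 at 1.5 hr and 34.8 and 36.5 at 24 hr, against 2.91 and 3.36 untreated.

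Low values of the table, times transcript length, tend to fall on whole multiples of a step, taken as what 1 read was worth. With the length of the longest annotated transcript, the reads behind Gch1 were estimated at about 9.16 per column untreated and 155, 22.7 and 123 at the treated times. Untreated, R1 and R2 gave 8.45 and 9.87, which are not whole, so the true reads of Gch1 may be fewer. Exact (Clopper-Pearson) 95% intervals of the fold from the estimated reads were 8.48 to 36.8, 1.30 to 7.15 and 5.92 to 25.97 at the 3 times. They are of the deposited fold, as are the intervals given below for other members, and none was made relative to the median. They cover counting error only, and the reads may include PCR copies. For Ass1 and Slc7a2, which are in the published lists of reads per gene, reads estimated in this way were 2.43 to 4.26 times the listed ones, so these intervals may be too narrow. All 3 lie above 1, but with reads 4 times fewer, an alternative chosen after seeing the data, they ran from 4.84 to 160, from 0.611 to 34.6 and from 3.35 to 113, and that at 6 hr included 1. The log2 ratio was 4.02, 1.49 and 3.51 as deposited and 3.58, 2.23 and 3.40 relative to the median. Gch1 lies at chr14:47773570-47809088 of mm9 on the minus strand, and the NF-κB consensus shown above lies directly before its start.

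Nos2, the inducible synthase that makes nitric oxide in activated macrophages, was barely detected. Its levels were 0.237 untreated and 1.23, 0.131 and 1.14 after 1.5, 6 and 24 hr, with R1 listed at 0 at 6 hr. These values rest on about 1.05 reads per column untreated and 5.64, 0.523 and 5.94 after 1.5, 6 and 24 hr. The ratio was 5.18 at 1.5 hr (95% interval 0.698 to 265) and 4.81 at 24 hr (0.618 to 234), and each interval includes 1. A difference of Nos2 was not detectable at this depth.

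The other nitric oxide synthases were as close to 0. Nos1, the neuronal form, had levels of at most 1.04 and Nos3, the endothelial form, of at most 1.91. Of the endothelial markers Pecam1, Cdh5, Kdr, Tek, Tie1 and Emcn, none was above 100 and their summed level was between 2.29 and 6.93. The sum over 10 leukocyte markers was 4288 untreated and 18527, 3671 and 9368 after 1.5, 6 and 24 hr, with 4 or 5 of the 10 above 100 and none at 0. Lyz2 (lysozyme) made up most of it, with levels of 2257, 14668, 2692 and 7187, while Ptprc, which encodes CD45 of all leukocytes, was between 8.63 and 30.8. The 10 markers did not move together. At 24 hr Csf1r (295 untreated, 124), Cd68 (605, 312), Mrc1 (17.6, 7.22) and Fcgr1 (53.9, 14.4) were below untreated, and the others were above it. Like the leukocyte sum, the levels of Slc7a1, Slc7a2, Ass1, Gch1, Arg1 and Odc1 were higher than untreated at 1.5 and 24 hr. So was that of Nos2, on few reads. The part of the sum in those results was not tested. The sum over 10 fibroblast markers was between 43327 and 90923, with 8 to 10 of them above 100 and none at 0, so the cells carried the markers of their label.

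The arginases, which compete with nitric oxide synthases for arginine, were both low. Arg1, the cytosolic form known from liver and from some macrophages, had a level of 1.92 untreated and of 11.1, 4.81 and 26.3 after 1.5, 6 and 24 hr. In R1 and R2 the 24 hr level was 27.5 and 25.1, against 1.93 and 1.91 untreated. About 2.99 reads per column untreated stood against 17.9, 6.598 and 48.2.

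The ratio of Arg1 to untreated was therefore 5.75 at 1.5 hr (95% interval 1.68 to 30.5), 2.50 at 6 hr (0.607 to 15.9) and 13.7 at 24 hr (4.38 to 68.2), the largest of the 9 genes at 24 hr. As deposited, the intervals at 1.5 and 24 hr lie above 1 and that at 6 hr does not. Relative to the median the log2 ratio at 6 hr was 2.06, and no interval was made on that scale. With reads 4 times fewer, only that at 24 hr did, at 1.51 to 435, while that at 1.5 hr ran from 0.380 to 189. Arg1 was highest at 24 hr, like Ass1, and was 2.38-fold higher there than at 1.5 hr. The hepatocyte markers Alb, Afp, Ttr, Apoa1, Cps1 and Otc had a summed level of at most 5.85, with 3 to 5 of the 6 listed at 0. Arg1 lies at chr10:24635014-24647276 of mm9 on the minus strand.

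Arg2, the mitochondrial arginase, had levels of 6.95, 9.99, 5.18 and 5.43. Its columns did not match, at 11.7 in R1 and 2.24 in R2 in the untreated library. The log2 ratio at 6 hr was -0.89 in R1 and 0.86 in R2, and at 24 hr -0.79 and 0.88, so no direction can be given for it. Its fold intervals (0.655 to 3.78, 0.258 to 2.32 and 0.317 to 2.27) all include 1. Arg1 stood at 0.277 times the level of Arg2 in untreated MEFs and at 4.85 times at 24 hr. In R1 this ratio was 0.166 and 4.09, and in R2 it was 0.855 and 6.08.

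Odc1, which turns ornithine into the polyamine putrescine, had a level of 215 untreated and of 495, 124 and 363 after 1.5, 6 and 24 hr. Its log2 ratio was 1.21, -0.79 and 0.76 as deposited, so it was above the untreated level at 1.5 and 24 hr and below it at 6 hr. Relative to the median the ratio was 0.76, -0.05 and 0.66, within 2-fold at every time and near 0 at 6 hr. The level at 6 hr was 4.00-fold lower than at 1.5 hr. R1 and R2 gave the same signs at each time as deposited, with 1.15 and 1.26 at 1.5 hr and -0.77 and -0.82 at 6 hr.

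Odc1 lies at chr12:17551679-17558308 of mm9 on the plus strand. Of the stretches of 50 bases in its transcript, 55.1% occurred elsewhere in mm9, in 18 windows of 100 kb, so that reads from copies cannot be told apart from its own over that part. For Slc7a1 and Slc7a2 the share was 0.337% and 1.30%, and for Asl, Nos2, Gch1, Arg1 and Arg2 it was 0.

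The order of the levels shows how the set was composed. In untreated MEFs it ran from Ass1 through Asl, Odc1, Slc7a1, Slc7a2, Arg2, Gch1 and Arg1 to Nos2. Arg2, whose columns ran from 2.24 to 11.7, cannot be placed apart from its neighbour Gch1, at 2.91 and 3.36. At 24 hr the order was Ass1, Asl, Odc1, Slc7a1, Slc7a2, Gch1, Arg1, Arg2 and Nos2, with Gch1 and Arg1 above Arg2 in both columns. At 1.5 hr Odc1 was above Asl and Slc7a2 above Slc7a1, in both columns.

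Genes that share the pathway with the 9 members were taken from 8 lists with 72 genes, of which 71 are in the table and 31 had a mean level above 100. Of these 31, 7 were at least 2-fold higher and 0 lower at 1.5 hr as deposited, 1 higher and 13 lower at 6 hr, and 3 higher and 2 lower at 24 hr. Relative to the median, 4 were higher and 2 lower at 1.5 hr, 2 and 2 at 6 hr and 2 and 2 at 24 hr. The background shares are those given for the members. The median over the 31 genes was 0.12, -0.14 and 0.08 relative to the coding median, with genes on either side of it.

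**Figure D3:**
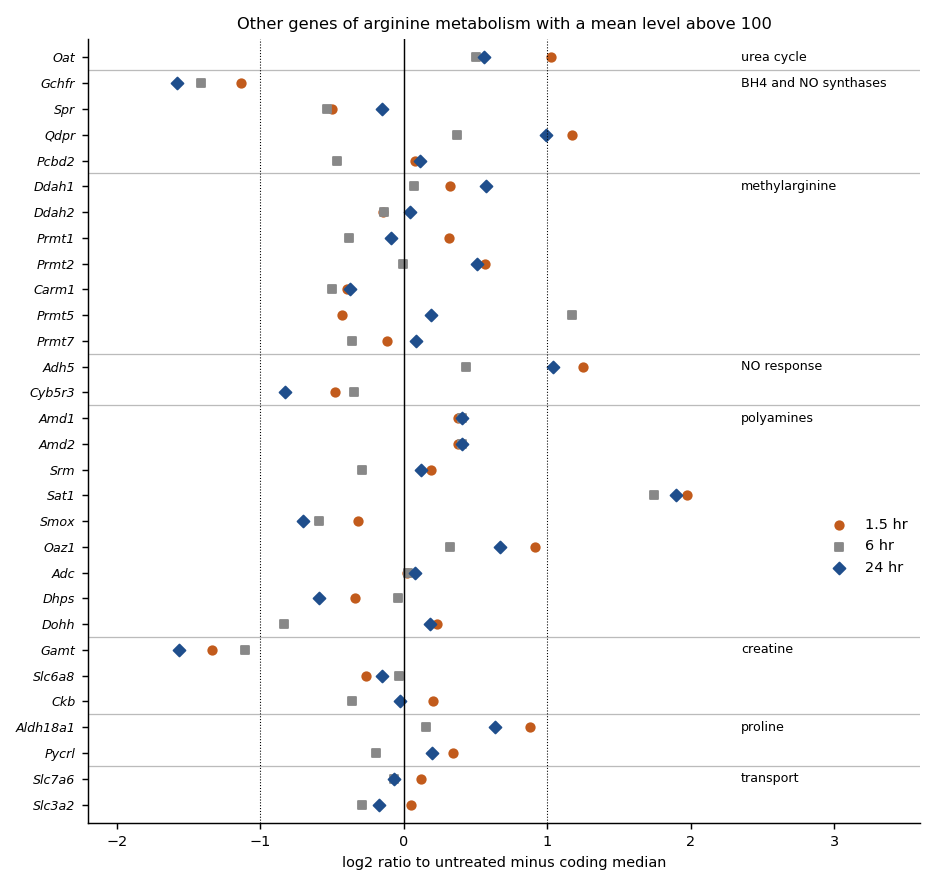
Log2 ratio to untreated minus the coding median (x axis) at 1.5 hr (circles), 6 hr (squares) and 24 hr (diamonds) of listed genes with a mean level above 100 (y axis), grouped by list, with dotted lines at 2-fold. Most genes lie within 2-fold, Sat1 stands to the right at all 3 times, and Gchfr and Gamt stand to the left.

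Around Gch1, the tetrahydrobiopterin genes went different ways. Gchfr, which encodes the feedback regulator of GTP cyclohydrolase, had levels of 241, 149, 54.4 and 86.7, and its relative log2 ratio was -1.14, -1.41 and -1.58. It was past 2-fold lower on both scales and in both columns at 6 and 24 hr. Qdpr, which regenerates the cofactor, had levels of 81.2, 249, 62.9 and 173 and a relative log2 ratio of 1.17, 0.37 and 0.99. Spr, the last enzyme of the synthesis, had 570, 548, 236 and 551, with relative ratios between -0.53 and -0.15. Pts, the enzyme between Gch1 and Spr, stayed below the filter with levels of 13.8, 74.4, 23.6 and 40.9. Its relative log2 ratio was 1.99, 1.51 and 1.46. Of the 4 genes of this list that passed, 1 was higher and 1 lower at 1.5 hr relative to the median.

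Of the urea cycle genes, only Oat (ornithine aminotransferase, which links ornithine to glutamate and proline) passed the filter, with levels of 172, 477, 146 and 272. Cps1 and Otc, the mitochondrial enzymes that make citrulline in the liver, had levels of at most 5.58 and 0. Slc25a15, the mitochondrial ornithine carrier, had 18.9, 19.8, 9.82 and 17.8. Removal of nitric oxide adducts was represented by Adh5, the S-nitrosoglutathione reductase, at 203, 655, 164 and 447. Its relative log2 ratio was 1.25, 0.43 and 1.04. The subunits of soluble guanylate cyclase, the receptor of nitric oxide, all stayed below the filter, with Gucy1b3 at 1.94, 8.43, 2.14 and 8.20.

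Downstream of Odc1, Sat1 was the polyamine gene with the largest ratio. Sat1 acetylates spermidine and spermine, the step that starts their breakdown and export, and had levels of 204, 1088, 409 and 816. Its relative log2 ratio was 1.97, 1.74 and 1.90, and in both columns and on both scales it was past 2-fold at 1.5 and 24 hr. The synthases Srm and Sms had 1461, 2270, 714 and 1706 and, below the filter, 20.9, 63.5, 26.5 and 65.2. Oaz1, the antizyme that directs Odc1 to degradation, had 1445, 3698, 1083 and 2469, with relative ratios of 0.91, 0.32 and 0.67. Of the 9 polyamine genes that passed, 1 was at least 2-fold higher relative to the median at each time, Sat1, and 0 were lower.

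Creatine synthesis, which also consumes arginine, gave the other low gene. Gamt, the methyltransferase that completes creatine, had levels of 665, 358, 185 and 241 and a relative log2 ratio of -1.34, -1.10 and -1.57. It was past 2-fold lower on both scales and in both columns at 6 and 24 hr. Gatm, the enzyme before it, which takes the amidino group from arginine, stayed below the filter with 21.1, 118, 23.9 and 37.8. Of the 7 genes for dimethylarginine removal and protein arginine methylation that passed, none was past 2-fold relative to the median at 1.5 or 24 hr. Prmt5 was higher at 6 hr (1.17), but R2 alone gave 0.93, under 2-fold, and as deposited its log2 ratio was 0.43. The remaining transporters for cationic amino acids that passed, Slc7a6 and Slc3a2, stayed between -0.29 and 0.12 relative to the median, and the proline gene Pycrl between -0.19 and 0.34. Aldh18a1, which begins proline and ornithine synthesis from glutamate, had levels of 314, 787, 209 and 525, with relative ratios of 0.88, 0.15 and 0.64. It was the 1 of 3 proline genes at least 2-fold higher as deposited at 1.5 hr.

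H3K4me3, a histone mark found at active and poised promoters, was measured in untreated MEFs only. A peak of the deposited list lay within 1 kb of the start of 6 of the 9 genes (Ass1, Asl, Gch1, Slc7a1, Slc7a2 and Odc1), where 52.1% of 19720 coding genes had one, and in all 6 the start itself lay inside the peak. Nos2, Arg1 and Arg2 had no such peak, and the nearest peaks were 93266, 56273 and 39205 bp from their starts.

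The 3 genes without a peak were also 3 of the 4 with the lowest untreated levels, and Gch1, at 3.13, was the other one. Among all coding genes, a peak was present at 1.73% of those listed at 0 in untreated MEFs, 23.4% of those with a level above 0 and up to 10, 73.8% of those from 10 to 100, and 88.4% of those above 100. Gch1 thus had a peak in a class of levels where 23.4% of genes had one.

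**Figure D4:**
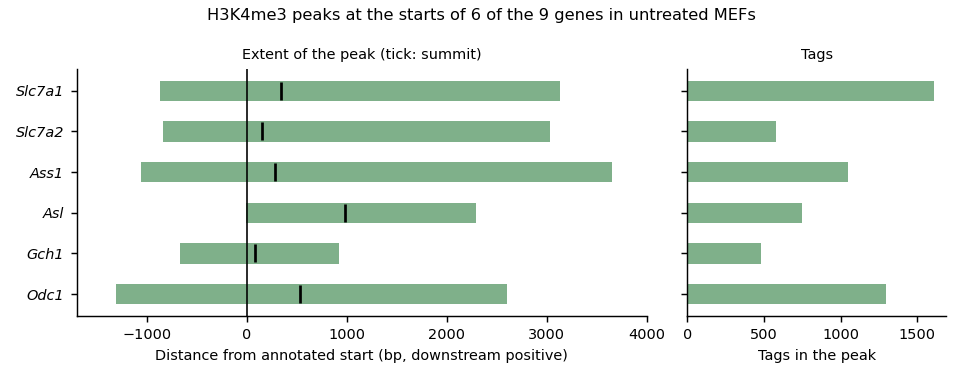
Extent of the H3K4me3 peak around the annotated start (left, distance in bp, downstream positive, tick at the summit) and tags in the peak (right, linear axis from 0) for the 6 genes with a peak at their start, in 1 library of untreated MEFs. Slc7a1 and Odc1 had the most tags, 1610 and 1297, and the Gch1 peak was the shortest, with 480 tags.

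The peak of Ass1 was 4718 bp long and held 1048 tags at a fold enrichment of 39.3. That of Slc7a1 was 3998 bp long with 1610 tags, that of Odc1 3909 bp with 1297 and that of Slc7a2 3875 bp with 580. The Asl peak, 2294 bp long with 746 tags, lay almost wholly downstream of the start, with 4 bp before it. The Gch1 peak was 1597 bp long with 480 tags, longer than 4.34% of all 11157 peaks. The second Slc7a1 promoter, at chr5:149204342-149204641 of mm9 and with the TATA box shown above, lay outside the peak at chr5:149208351-149212348. The tags of a peak followed the untreated levels only in part. Slc7a1 had the most tags of the 6 and the fourth highest level, while Slc7a2 and Gch1 had the fewest tags and the lowest levels.

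For each member past 2-fold relative to the median at some time, the coding genes with a mean level above 100 and the most similar 3 relative log2 ratios were found by Euclidean distance. Nearest to Ass1 was the chemokine gene Ccl9 (distance 0.21, ratios 0.92, 1.27 and 2.25), and the class I gene H2-T10 was also near (0.50). Nearest to Slc7a2 were Bcl2a1b (0.32), a survival gene of the Bcl2 family, Nmd3 (0.47) and Trim47 (0.47). Nearest to Gch1 were AY074887 (0.53), the chemokine gene Ccl12 (0.66) and the adhesion molecule gene Vcam1 (0.87).

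Nearest to Arg1 were Glrx (0.45), which encodes glutaredoxin, and the matrix metalloproteinase genes Mmp13 (0.60) and Mmp9 (0.78). For Nos2 they were BC048507 (0.68), Asna1 (0.69) and Rpl27 (0.78), but its ratios rest on about 1 read per column in the untreated library. Each distance is over 3 values from 4 libraries that share a control, so the lists name genes of a like course and nothing more.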

How the data were processed

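Groups were taken from the sample labels. RNA reads were aligned by the authors to mm9 (TopHat), who deposited RPKM per RefSeq transcript, 2 columns for each library, with column names matched to times through the study's own list of sequencing depths. The 24 hr RNA label carries a ChIP protocol and was used by its title. The deposited RPKM exceeded those of the study's own lists by a median factor of 86.5. Reads estimated from them were used for the intervals of low members, and for Ass1 and Slc7a2 to check the estimate. For H3K4me3, the authors mapped with Bowtie and called peaks with MACS against the input. The deposited peak list holds a count of tags, a score from the log of the p, a fold enrichment (a ratio), an FDR in percent and an average tag value.

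From these, levels (mean of R1 and R2) and log2 ratios to the untreated library were computed without a pseudocount, as deposited and minus the median of the 6050 coding genes with a mean level above 100. Past 2-fold was called higher or lower, and there was no test. Every member was named, and so were listed genes past 2-fold in both columns on both scales. Some nearest genes and list members are not reported here. Members and lists were chosen with earlier results of these data known. Positions and stretches of 50 bases came from mm9 and its annotation, promoters from RefSeq on GRCm38.p6. On simulated 1.5 and 6 hr libraries, 200 of 200 changed genes were recovered with 0 false calls among 5850. These counts check the computation only, and recovery of genes close to the 2-fold line was not tested. Shifting 1 simulated library as a whole gave 5995 false calls of 6050 as deposited and 0 relative to the median. The simulated shift was itself past 2-fold, larger than the median shift of the real 6 hr library, and the simulated noise was small. Both counts were thus fixed by the construction and give no rate of false calls in the real libraries on either scale. Python 3.11.15, numpy 2.4.6, pandas 2.3.3 and scipy 1.17.1 were used. Alternatives were other scalings, filters, fold thresholds, pseudocounts and columns.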

Additional observations from a re-analysis of the deposited data

Results flagged for a closer look

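Odc1 was the member whose log2 ratio to untreated changed sign between times in both columns and on both scales. Slc7a1 and Asl also changed sign in both columns as deposited, but not in both columns between the same times relative to the coding median. For Asl the mean and R2 did change sign on that scale between 1.5 and 24 hr, while R1, at -0.71 and -0.02, did not. As deposited, the ratio of Odc1 was 1.21 at 1.5 hr and -0.79 at 6 hr, and again -0.79 at 6 hr and 0.76 at 24 hr. With 1 library at each time the difference was not tested. Relative to the coding median, the 6 hr value was -0.05, with -0.03 in R1 and -0.08 in R2, and the values at 1.5 and 24 hr were 0.76 and 0.66.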

How the results depend on the processing

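No paired analysis was possible because each time has 1 library. For the same reason no replicate could be left out. Each log2 ratio of the 9 members was set against each alternative in turn. In 93 of these comparisons it moved by no more than the farther of R1 and R2 lay from the mean. In 77 it moved by more, and in none did it turn its sign past 2-fold. R1 or R2 alone cannot exceed that distance, so all comparisons with them are among the 93 by construction and say nothing of stability. With values scaled to the same sum, or by a median of ratios, 2 members were at least 2-fold higher at 6 hr, where 0 were as deposited, and R1 alone gave 1. With no filter on low values the count of higher members was 6, 2 and 5 at 1.5, 6 and 24 hr as deposited and 5, 4 and 5 relative to the median. The members that enter are Gch1, Arg1 and Nos2, which have low levels, and a difference of Nos2 was not detectable. The share of all genes was not computed for the alternative filters, fold thresholds and pseudocounts, here or for the wider lists. With a mean above 1000, only Ass1 was left and the count was 1 at 1.5 and 24 hr as deposited and 1 at each time relative to the median. At 3-fold, 1 member was higher at 1.5 hr and 1 at 24 hr as deposited, and 1 at each time relative to the median. At 1.5-fold, 4 were higher at 24 hr on both scales, 1 was higher and 1 lower at 6 hr as deposited, and 1 was lower at 1.5 hr relative to the median. A pseudocount of 100 left 1 member higher at 24 hr as deposited, and 1, 0 and 1 relative to the median. A pseudocount of 10 left 1 relative to the median at 24 hr, and R2 alone left 1 relative to the median at 1.5 hr. Without the 6 hr library, an alternative chosen after seeing the data, the members past 2-fold at 1 or more times were 3 higher and 0 lower, as with it.

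Of the 6 members with an H3K4me3 peak, 2 (Asl and Odc1) had one of at least 40-fold enrichment, where 33.7% of 19720 coding genes had one. Ass1 (39.28) and Gch1 (38.85) lay just under this cut. The other settings gave 6, where 51.4% to 54.5% of coding genes had one. Among them was any coding transcript start, chosen after seeing the data. In the wider lists, 7, 1 and 3 of the 31 genes were higher at 1.5, 6 and 24 hr. With no filter the count was 18, 3 and 8, over every listed gene not at 0 in all libraries. With a mean above 1000 it was 1, 0 and 0, over only the genes above that. Without the filter, a gene at 0 in only 1 of the 2 libraries compared, such as Slc25a2 at 1.5 hr, counted as past 2-fold. For the 31 genes the count was 3, 0 and 1 at 3-fold, and 15 and 8 at 1.5 and 24 hr at 1.5-fold. By a median of ratios it was 4 at 1.5 hr and 2 at 6 hr, and scaled to the sum 2 at 6 hr. At 6 hr, R2 alone, a pseudocount of 10 and one of 100 each gave 0, and a pseudocount of 100 gave 1 at 24 hr. Lower (0, 13 and 2) it was 7, 28 and 9 with no filter, 4 and 0 at 6 and 24 hr with a mean above 1000, 2 and 0 there at 3-fold, and 2, 23 and 4 at 1.5-fold. It was 2 at 1.5 hr and 2 at 6 hr by a median of ratios, 1 and 1 scaled to the sum, and 6 and 1 at 6 and 24 hr with a pseudocount of 100. The higher pseudocounts and stricter filters act by their construction, and the cause of the other moves was not tested. Depth limits Nos2, Arg1 and Arg2, which rest on few reads.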

Other observations

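Some genes of the wider lists with a mean level of at most 100 had ratios as large as those of the members. Azin1, the antizyme inhibitor that spares ornithine decarboxylase from degradation, had levels of 25.8, 86.3, 33.3 and 56.3 at 0, 1.5, 6 and 24 hr and a relative log2 ratio of 1.30, 1.11 and 1.03. Slc25a29, a mitochondrial carrier of basic amino acids, had levels of 48.1, 15.0, 10.1 and 13.1 and a relative log2 ratio of -2.12, -1.51 and -1.97. Slc7a4, a member of the family of Slc7a1 with no established transport activity, had levels of 21.3, 5.31, 9.23 and 6.43. Prkg1, the cGMP-dependent kinase that acts below soluble guanylate cyclase, had levels of 38.5, 41.0, 10.8 and 19.2. These 4 were chosen after their values were seen.

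The rows of Amd1 and Amd2, which encode S-adenosylmethionine decarboxylase, had nearly the same levels in each library, at 93.4 and 93.6 untreated and at 165 and 166 at 1.5 hr. Their log2 ratios were the same in both columns at each time (0.82, -0.33 and 0.51 as deposited for the mean), so the rows do not measure these copies separately. Both were counted among the 31 listed genes, and among the 9 polyamine genes, with a mean level above 100.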
